A study of Homo sapiens with 12 samples.

Results

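The BCL2 family decides whether mitochondria are opened during apoptosis, and 10 of its genes were followed here as human pluripotent cells were turned into blood progenitors. They were chosen by name, with no filter on their values, but with earlier results of these data known. The 10 are 4 survival genes (BCL2, BCL2L1, MCL1 and BCL2A1), 2 effectors (BAX and BAK1) and 4 BH3-only genes (BCL2L11, BBC3, PMAIP1 and BIK). The expression table holds 56593 distinct gene symbols. Every member stands on a single line of that table, and 8 of the 10 reached 1 FPKM in at least 3 libraries, the level needed to enter the test, as did 14840 symbols in all. BCL2 and BCL2A1 did not reach it.

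RNA-seq libraries were made from H1, an established human embryonic stem cell line, at 4 stages with 3 libraries each: undifferentiated H1 cells, APLNR+ cells collected on day 2, CD31+CD34+ cells on day 5 and CD43+ cells on day 8 of hematopoietic differentiation. Cells received activin A and BMP4 for 2 days and then VEGF and bFGF, in Custom mTeSR1 medium. All libraries therefore come from 1 cell line, and the labels do not say whether the replicates were separate cultures. The study's methods speak of independent experiments in general, without naming these libraries, so p values measure only the spread between these libraries, which may be technical. The study compared the stages in order to follow the steps from pluripotency through mesoderm and hemogenic endothelium to blood, and the comparisons below follow the same order.

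As background, survival proteins hold the effectors BAX and BAK in check. BH3-only proteins are made or freed under stress and release that hold, either by binding the survival proteins or by engaging the effectors directly. The effectors then form pores in the outer mitochondrial membrane, cytochrome c leaves, and caspases are activated on the apoptosome. Blood lineages differ in the survival protein they lean on: BCL-XL, the long product of BCL2L1, is known for keeping maturing red cell precursors and platelets alive, and MCL-1, a short-lived protein, is known to be needed by hematopoietic stem and progenitor cells. Pluripotent stem cells are known to be primed for apoptosis. The deposited values are per gene and do not separate products of opposite action, such as the long and short forms of BCL2L1 and MCL1, and they measure RNA, not protein.

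In these libraries the leading survival transcript passed from MCL1 to BCL2L1 between day 2 and day 5, while among the 4 BH3-only members the leading transcript passed from PMAIP1 in H1 to BBC3 in CD31+CD34+ cells and to BBC3 and BIK at close levels in CD43+ cells. BCL2L1 and PMAIP1 moved in opposite directions at the step from APLNR+ to CD31+CD34+ cells. Their upstream sequences are shown because these 2 members were called at that step; they come from RefSeq on GRCh38.p14 and hold the 250 bases before each annotated start, written on the strand of the gene. The table has windows for 8 of the 10 members and 2 starts for BCL2L1, of which the one farther upstream is shown. Capitals mark matches on either strand to TATAAA (the TATA box) or GGGCGG (the GC box).
BCL2L1, minus strand, chr20:31723964-31724213: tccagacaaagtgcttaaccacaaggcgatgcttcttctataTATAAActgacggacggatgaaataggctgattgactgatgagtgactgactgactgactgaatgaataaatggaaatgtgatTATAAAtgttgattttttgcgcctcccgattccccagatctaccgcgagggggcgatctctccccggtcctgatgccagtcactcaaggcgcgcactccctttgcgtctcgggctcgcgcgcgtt
PMAIP1, plus strand, chr18:59899746-59899995: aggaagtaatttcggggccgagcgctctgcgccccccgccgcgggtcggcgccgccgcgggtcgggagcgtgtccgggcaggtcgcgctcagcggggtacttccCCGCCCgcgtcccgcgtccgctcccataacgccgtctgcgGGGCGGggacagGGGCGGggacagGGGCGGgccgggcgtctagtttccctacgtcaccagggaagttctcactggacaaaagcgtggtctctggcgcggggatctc
The GATA motifs TGATAA and AGATAA, the cyclic AMP response element TGACGTCA, the CCAAT box, the ETS motif CCGGAAG and the E-box CACGTG were searched too, on both strands, and had no match in these 2 windows. The BCL2L1 window has 2 matches to TATAAA, which is present in 10.7% of all 35116 promoter windows of that length, and none to GGGCGG. The PMAIP1 window has 4 matches to GGGCGG, present in 42.6% of windows, and 36 CpG dinucleotides beside a median of 11. The BCL2L1 window that is shown holds 17 CpG, and the other BCL2L1 window 12. A match describes letters in the window only, and the expression values do not say which start was used.

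The scaling of the libraries and the replicate structure bear on every value below. Summed FPKM per library ran from 568036 to 1576040, while the number of genes at 1 FPKM or more ran only from 12297 to 13060, and the read depth behind the values is unknown. Replicate 1 of each stage stood apart from replicates 2 and 3 on the fourth principal component, with scores of 21.23 to 28.74 beside -17.2 to -9.05. Each sorting marker was present in the stage named for it, APLNR at 383 FPKM ± 22.3 in APLNR+ cells beside 0.528 ± 0.152 in H1, PECAM1 (CD31) and CD34 at 55.2 ± 4.10 and 47.7 ± 7.08 in CD31+CD34+ cells, and SPN (CD43) at 75.5 ± 15.2 in CD43+ cells (mean ± SD, n = 3). APLNR was also at 403 ± 24.6 in CD31+CD34+ cells, and PECAM1 at 95.9 ± 11.7 in CD43+ cells. Erythroid and megakaryocyte markers were present in CD43+ cells as well, as given beside BIK. These are bulk RNA values, so fewer cells of a type and less RNA per cell cannot be told apart.

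Among the survival genes, BCL2L1, which encodes BCL-XL, moved most. It was at 24.4, 33.1 and 32.3 FPKM in the H1 libraries, 12.7, 17.0 and 14.6 in APLNR+ libraries, 81.0, 116 and 106 in CD31+CD34+ cells, and 56.5, 74.3 and 65.0 in CD43+ cells, in the order of replicates 1 to 3. No 2 stages overlapped, and replicate 1 was the lowest library of every stage. The order of levels was CD31+CD34+, CD43+, H1 and APLNR+, and each neighbour in it differed in the test.

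From H1 to APLNR+ cells the mean of BCL2L1 went from 29.9 ± 4.78 to 14.8 ± 2.16 FPKM, a fall of 0.97 on the log2(FPKM + 1) scale (standard error 0.16, limma adjusted p = 0.000329), just short of the 2-fold needed for a call. It came to -1.10 without H1 replicate 1 and -1.07 without APLNR+ replicate 2, both called. It then rose 6.83-fold to 101 ± 18.0 FPKM in CD31+CD34+ cells (log2 change 2.68, standard error 0.16, limma adjusted p = 3.52e-08), and fell by 0.61 on the log2 scale to 65.3 ± 8.91 in CD43+ cells (limma adjusted p = 0.00764). CD43+ cells stayed 2.18-fold above H1 (log2 change 1.10, limma adjusted p = 5.89e-05), and without H1 replicate 1 this change was 0.97 and no longer called.

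MCL1 took the other direction within a narrower range. Its levels were 86.2, 82.4 and 82.5 FPKM in H1, 91.7, 91.2 and 90.1 in APLNR+ libraries, 64.2, 54.5 and 55.3 in CD31+CD34+ and 49.1, 48.9 and 51.1 in CD43+ libraries. APLNR+ and H1 were the high stages and the later ones the low stages, with no overlap between any 2 stages. The difference between H1 and APLNR+ did not pass the test (0.12 on the log2 scale, standard error 0.08, limma adjusted p = 0.219), and was 0.35 and passed under quantile normalization (limma adjusted p = 0.00698). MCL1 fell by 0.64 from APLNR+ to CD31+CD34+ cells (standard error 0.08, limma adjusted p = 1.30e-05), and CD43+ cells were 0.594 of H1 (log2 change -0.74, limma adjusted p = 2.93e-06). The last step, -0.22, passed at an adjusted p of 0.0367 by limma but not under upper-quartile or quantile scaling, nor with its 2 stages fitted alone. It was -0.14 without CD31+CD34+ replicate 1 (limma adjusted p = 0.138), and it also failed without APLNR+ replicate 2, any CD43+ replicate, or H1 replicate 2 or 3. In replicates 2 and 3 alone it was -0.13 and did not pass (limma adjusted p = 0.0836). No change of MCL1 reached 2-fold except under quantile normalization, where CD43+ against APLNR+ cells, -0.86 otherwise, was -1.02 and called (limma adjusted p = 1.22e-06).

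BCL2, the founding member of the family, was low throughout: 0.837, 0.848 and 0.800 FPKM in H1, 0.221, 0.213 and 0.324 in APLNR+ libraries, 0.626, 0.692 and 0.671 in CD31+CD34+ and 0.541, 0.398 and 0.448 in CD43+ libraries. The stages did not overlap, with H1 highest and APLNR+ lowest. BCL2 entered only the fit without a filter on low values, over 34116 genes, where it fell by 0.55 on the log2(FPKM + 1) scale from H1 to APLNR+ cells (limma adjusted p = 7.57e-05) and rose by 0.41 to CD31+CD34+ cells (limma adjusted p = 0.000355). On this scale the pseudocount of 1 is larger than the values themselves, and the ratio of the means was 3.28-fold for the first of these steps and 2.62-fold for the next. BCL2A1, an NF-kB responsive survival gene of mature blood cells, was listed at 0 in all 12 libraries. An exact 0 in this table can be a failed estimate, since EEF1A1, a translation factor gene used by every cell, is listed at 0 in 6 libraries.

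**Figure D1:**
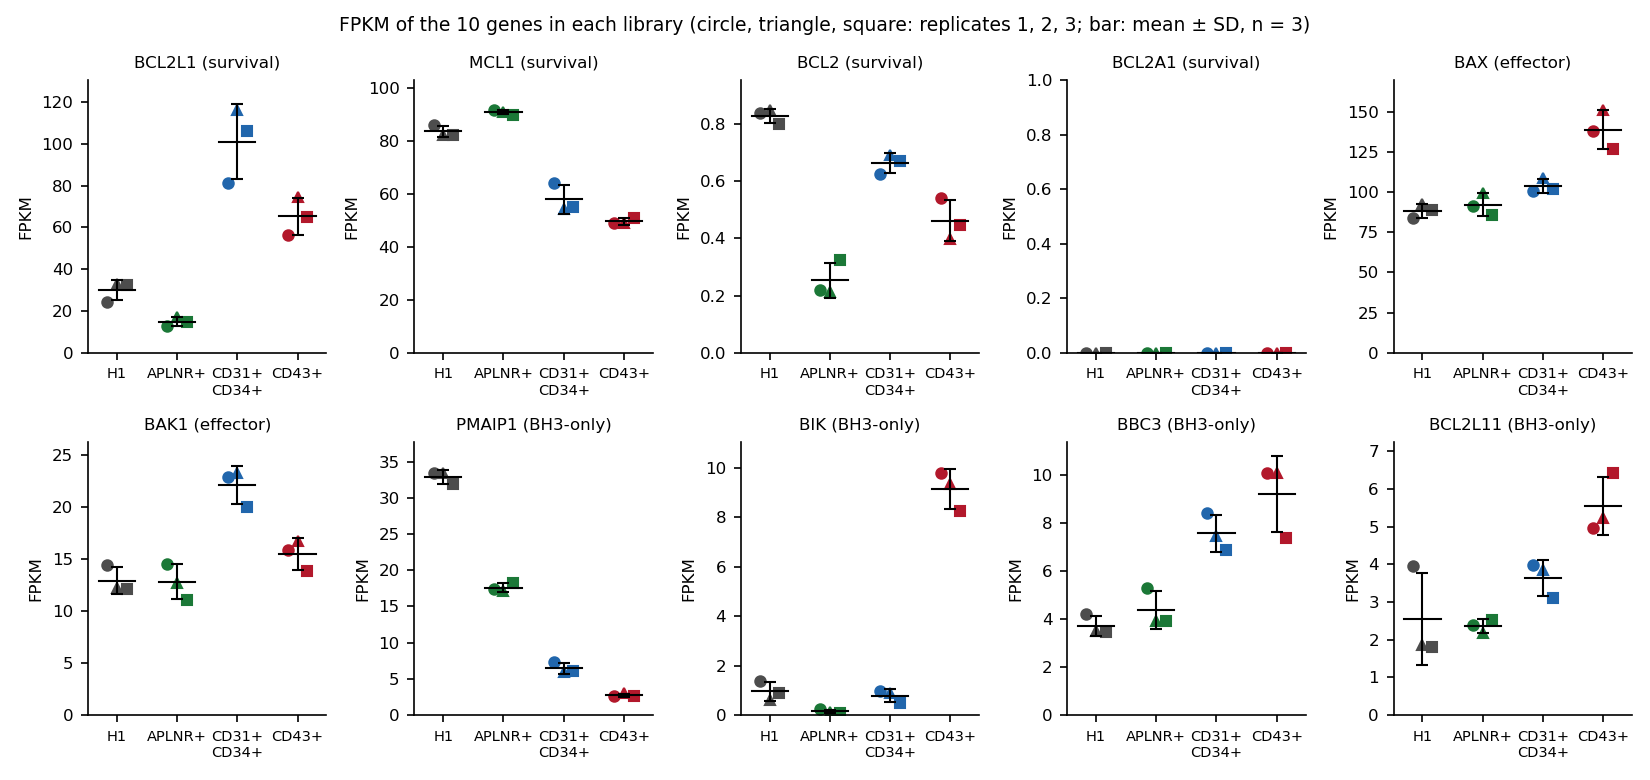
FPKM (vertical axes, linear from 0) of the 10 genes at the 4 stages (horizontal axes); each point is a library, with circle, triangle and square for replicates 1, 2 and 3, and the black lines are the mean ± SD of 3 libraries. BCL2L1 peaks in CD31+CD34+ cells at 101 FPKM, PMAIP1 steps down from 32.9 to 2.73 FPKM without overlap, BIK is high in CD43+ cells only (9.13 FPKM against at most 1.37 in any other library), and BCL2A1 is listed at 0.

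The share of each gene within its class does not depend on how a library was scaled. MCL1 made up 73.2% ± 3.60 of the summed FPKM of the 4 survival genes in H1 and 85.8% ± 1.77 in APLNR+ libraries, and BCL2L1 26.1% ± 3.62 and 13.9% ± 1.78. In CD31+CD34+ cells BCL2L1 held 62.9% ± 6.49 and MCL1 36.7% ± 6.48, and in CD43+ cells 56.4% ± 3.48 and 43.2% ± 3.39 (SD, n = 3). The ratio of BCL2L1 to MCL1 was under 1 in all 6 libraries of H1 and APLNR+ cells (0.139 to 0.402) and above 1 in all 6 libraries of the later stages (1.15 to 2.13). BCL2 never exceeded 0.751% of the survival sum. That sum covers the 4 members only. It leaves out BCL2L2, another survival gene, at 3.31 ± 0.512, 5.84 ± 0.949, 4.54 ± 0.607 and 5.66 ± 0.587 FPKM at the 4 stages in order. The sum itself was 114 ± 2.62 FPKM in H1, 106 ± 2.06 in APLNR+ libraries, 160 ± 12.8 in CD31+CD34+ and 115 ± 8.78 in CD43+ cells, with MCL1 and BCL2L1 in different proportions at close sums in H1 and CD43+ cells.

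Neither effector was called in any of the 6 comparisons, beside 14.4% to 40.1% of all tested genes, and 2 genes are too few to read this as particular to them. BAX, the effector that waits in the cytosol, was at 84.0, 92.7 and 89.0 FPKM in H1, 91.5, 99.7 and 85.6 in APLNR+ libraries, 101, 109 and 102 in CD31+CD34+, and 138, 151 and 127 in CD43+ libraries. H1 and APLNR+ libraries overlapped, and the CD43+ libraries were the highest. The means of the first 3 stages were 88.5, 92.3 and 104 FPKM, and neither step between them passed the test (limma adjusted p = 0.619 and 0.0953). Under quantile normalization these steps were 0.29, which passed (limma adjusted p = 0.00718), and -0.04. BAX rose to 139 ± 12.1 in CD43+ cells, a log2 change of 0.40 from CD31+CD34+ cells (standard error 0.09, limma adjusted p = 0.00250) and of 0.64 from H1 (limma adjusted p = 3.72e-05), below 2-fold.

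BAK1, whose product sits in the mitochondrial membrane, had its high stage elsewhere. It was at 14.4, 12.2 and 12.1 FPKM in H1, 14.5, 12.7 and 11.1 in APLNR+ libraries, 22.9, 23.3 and 20.0 in CD31+CD34+ and 15.9, 16.7 and 13.8 in CD43+ libraries. The CD31+CD34+ libraries stood above all others, and the other 3 stages overlapped. BAK1 rose by 0.75 on the log2 scale from APLNR+ to CD31+CD34+ cells (standard error 0.12, limma adjusted p = 9.63e-05) and fell by 0.49 to CD43+ cells (limma adjusted p = 0.00373), and CD43+ against H1 did not pass (0.24, limma adjusted p = 0.0797). That difference was 0.36 under quantile and 0.35 under upper-quartile scaling and then passed (limma adjusted p = 0.0282 and 0.0315), as it did at 0.32 without CD43+ replicate 3 or H1 replicate 1 (limma adjusted p = 0.0401 and 0.0391). Of the 50-base stretches of BAK1 transcripts, 12.3% also occur in the pseudogene BAK1P1, which was at 0.461 FPKM or less in these libraries, so a small part of its level is uncertain.

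BAX was thus the more abundant effector transcript at every stage, 6.91 ± 0.952 times BAK1 in H1, 7.29 ± 0.850 in APLNR+ libraries, 4.74 ± 0.344 in CD31+CD34+ and 8.97 ± 0.283 in CD43+ cells. Summed effector FPKM over summed survival FPKM was 0.886 ± 0.0137 in H1, 0.990 ± 0.0618 in APLNR+ libraries, 0.794 ± 0.0516 in CD31+CD34+ and 1.34 ± 0.121 in CD43+ cells. In CD43+ libraries this ratio (1.21 to 1.45) lay above that of every other library (0.754 to 1.04), and the CD31+CD34+ libraries (0.754 to 0.852) lay below. These ratios are descriptions of RNA and were not tested.

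Of the BH3-only genes, PMAIP1 had the largest fall of any member. It encodes NOXA, which binds MCL-1 and speeds its breakdown. PMAIP1 was at 33.5, 33.4 and 31.9 FPKM in H1, 17.4, 17.2 and 18.3 in APLNR+ libraries, 7.36, 5.90 and 6.04 in CD31+CD34+ and 2.58, 3.01 and 2.60 in CD43+ libraries. Each stage lay wholly below the stage before it. The 3 steps were falls of 0.87, 1.33 and 0.99 on the log2(FPKM + 1) scale with standard errors of 0.09 (limma adjusted p = 8.33e-06, 1.16e-07 and 2.93e-06), of which the middle one was called. The last was -1.03 or -1.04, and was called, when CD31+CD34+ replicate 2 or 3 or CD43+ replicate 2 was left out. From H1 to CD43+ cells the mean went from 32.9 ± 0.943 to 2.73 ± 0.242 FPKM, 12.1-fold lower (log2 change -3.19, limma adjusted p = 3.18e-11).

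BIK, a BH3-only gene whose product acts at the endoplasmic reticulum, had the largest rise in the last step. It was at 1.37, 0.600 and 0.907 FPKM in H1, 0.231, 0.126 and 0.0896 in APLNR+ libraries, 0.956, 0.901 and 0.496 in CD31+CD34+ and 9.80, 9.35 and 8.24 in CD43+ libraries. The CD43+ libraries were far above the rest, APLNR+ libraries were the lowest, and H1 and CD31+CD34+ libraries overlapped. BIK rose 11.6-fold from CD31+CD34+ to CD43+ cells (log2 change 2.51, standard error 0.15, limma adjusted p = 4.26e-08) and stood 9.51-fold above H1 (log2 change 2.39, limma adjusted p = 2.07e-08). The earlier steps were a fall of 0.75 (limma adjusted p = 0.000922) and a rise of 0.63 (limma adjusted p = 0.00220), and with a pseudocount of 0.1 in place of 1 both were called, at -2.07 and 1.83.

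Markers of maturing blood lineages had higher sums in CD43+ than in CD31+CD34+ cells, the step of the large rise of BIK. At the earlier stages the lists differed. The erythroid sum was 0.464 to 1.91 in H1 libraries, below that of CD31+CD34+ libraries, while BIK overlapped between these stages. The megakaryocyte sum was 7.30 to 10.3 in H1 and 1.74 to 3.30 in APLNR+ libraries. Like BIK, it was lowest in APLNR+ libraries and overlapped between H1 and CD31+CD34+ libraries. The summed FPKM of 4 erythroid markers (KLF1, GATA1, HBG2 and HBE1) was 1718 to 2199 in CD43+ libraries and 23.9 to 27.9 in CD31+CD34+ libraries, and that of 4 megakaryocyte markers (ITGA2B, GP9, PF4 and GP1BA) was 637 to 670 and 9.88 to 15.1. All 8 had a mean of at least 1 FPKM in CD43+ cells. The sum of 5 myeloid markers was 24.1 to 29.9 in CD43+ cells, where 3 of 5 reached 1 FPKM. The part of these cells in the rise of BIK was not tested. The 3 genes whose log2 profile over the 12 libraries was most like that of BIK, among 13375 genes, were PF4 (Pearson r = 0.993), HBQ1 (0.992) and TMCC1-AS1 (0.989), which describes points that fall into the same 4 stages.

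BBC3, which encodes PUMA, a protein that binds all the survival proteins, increased more gradually. It was at 4.19, 3.52 and 3.44 FPKM in H1, 5.30, 3.93 and 3.91 in APLNR+ libraries, 8.40, 7.46 and 6.86 in CD31+CD34+ and 10.1, 10.1 and 7.37 in CD43+ libraries. Neighbouring stages overlapped except at the step from APLNR+ to CD31+CD34+ cells. That step was a rise of 0.68 on the log2 scale (standard error 0.14, limma adjusted p = 0.000955), the steps before and after it did not pass (0.18 and 0.24, limma adjusted p = 0.299 and 0.169), and CD43+ cells were 2.48-fold above H1 (log2 change 1.10, limma adjusted p = 1.62e-05). Without CD43+ replicate 3, its lowest library in that stage, the last step was 0.38 and passed (limma adjusted p = 0.0393).

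BCL2L11, which encodes BIM, a BH3-only protein that can engage BAX directly, had an uneven starting point. It was at 3.95, 1.87 and 1.80 FPKM in H1, 2.39, 2.17 and 2.52 in APLNR+ libraries, 3.99, 3.84 and 3.11 in CD31+CD34+ and 4.98, 5.23 and 6.44 in CD43+ libraries. H1 replicate 1 reached the level of the CD31+CD34+ libraries, and the CD43+ libraries lay above all others. CD43+ cells were 2.19-fold above H1 (log2 change 0.93, standard error 0.19, limma adjusted p = 0.000733), and the change was 1.20 without H1 replicate 1 and 1.26 in replicates 2 and 3 alone, both called. The 2 later steps, 0.46 and 0.49, passed narrowly (limma adjusted p = 0.0443 and 0.0456). Leaving out any APLNR+ replicate, CD31+CD34+ replicate 1 or 2, or CD43+ replicate 1 or 2 lost both, and CD31+CD34+ or CD43+ replicate 3 lost the last (limma adjusted p of at most 0.146). Without a filter on low values both were lost as well (limma adjusted p = 0.105 and 0.112). Upper-quartile scaling lost the earlier of them and a pseudocount of 0.1 the last (limma adjusted p = 0.0595 and 0.0644).

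Exons of BCL2L11 overlap those of MIR4435-2HG, a long noncoding RNA on the opposite strand, in GENCODE 29, and the library kit is not stated to keep strand. MIR4435-2HG was at 12.6 ± 1.42, 19.1 ± 1.38, 86.5 ± 16.7 and 134 ± 16.5 FPKM at the 4 stages in order, many times the level of BCL2L11, so reads of the pair cannot be told apart in the stretch they share and the BCL2L11 values are uncertain. The antisense gene ABALON over BCL2L1 stayed at 0.564 FPKM or less, and ADAMTSL4-AS1, which overlaps MCL1, at 1.429 or less.

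**Figure D2:**
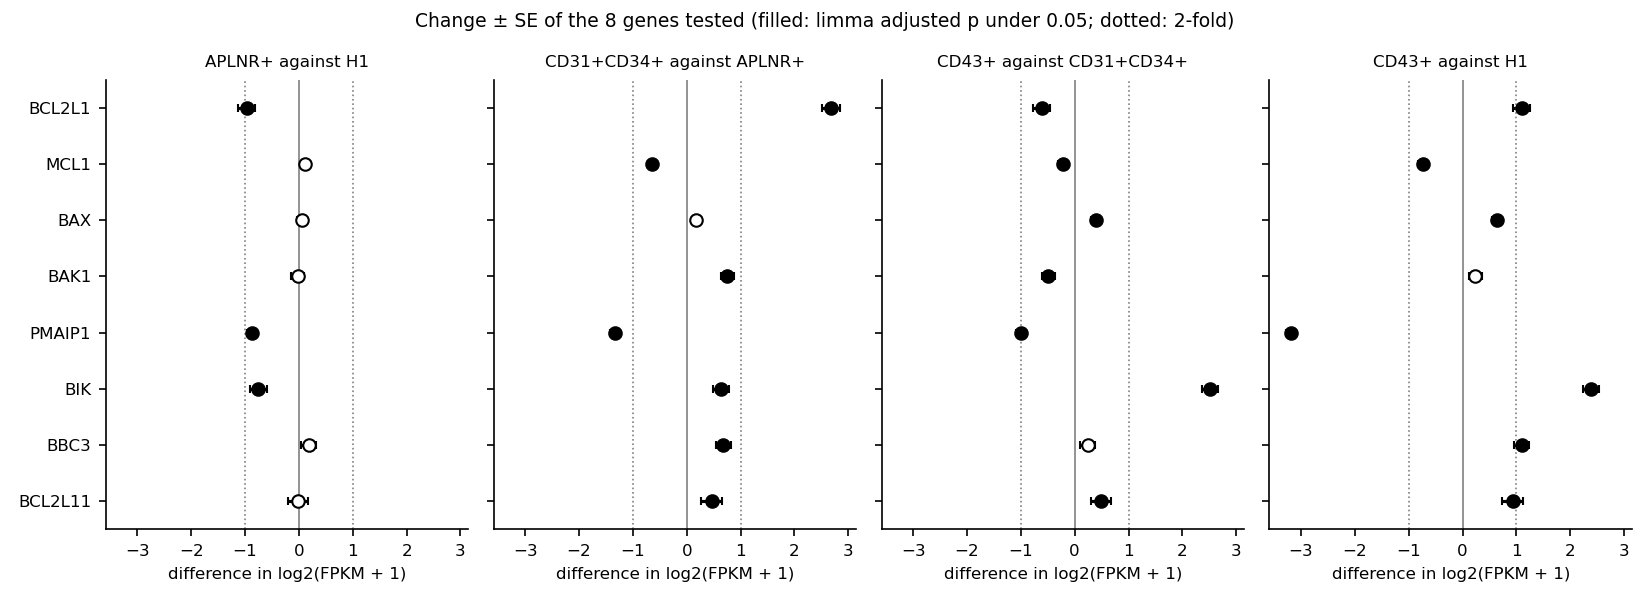
Difference in log2(FPKM + 1) between stages (horizontal axes) for the 8 genes tested (vertical axes), with bars of 1 standard error from the limma fit; filled points have an adjusted p under 0.05 and dotted lines mark 2-fold. BCL2L1 at 2.68 and PMAIP1 at -1.33 leave the 2-fold band at the step to CD31+CD34+ cells, and BIK at 2.51 in the step to CD43+ cells.

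Among the 4 BH3-only members the makeup turned over. PMAIP1 held 82.2% ± 3.73 of the summed FPKM of the 4 genes in H1, 72.0% ± 2.80 in APLNR+ libraries, 34.9% ± 2.07 in CD31+CD34+ and 10.3% ± 0.776 in CD43+ cells (SD, n = 3). BBC3 went from 9.24% in H1 to 41.1% in CD31+CD34+ and 34.4% in CD43+ cells, and BIK from 2.37% in H1 through 0.603% and 4.20% to 34.3% ± 1.20. The summed level of these 4 was 40.2 ± 2.61 FPKM in H1, 24.5 ± 1.01 in APLNR+ libraries, 18.4 ± 2.13 in CD31+CD34+ and 26.6 ± 1.71 in CD43+ cells. Over the survival sum this gave ratios of 0.351 ± 0.0307, 0.231 ± 0.0139, 0.117 ± 0.0222 and 0.232 ± 0.0246, lowest in CD31+CD34+ cells, whose libraries (0.102 to 0.142) lay below all others. This order is that of the 4 members and not of all BH3-only genes, since BID and BAD alone summed to 47.1, 38.5, 102 and 97.7 FPKM at the 4 stages. With BID, BAD, BMF and HRK added, a choice made after the values were seen, the ratios were 0.814 ± 0.108, 0.670 ± 0.0851, 0.859 ± 0.163 and 1.13 ± 0.123. Their mean was lowest in APLNR+ and highest in CD43+ cells. The CD31+CD34+ libraries (0.719 to 1.04) overlapped those of the other 3 stages, and APLNR+ libraries (0.613 to 0.768) overlapped those of H1 (0.742 to 0.938).

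**Figure D3:**
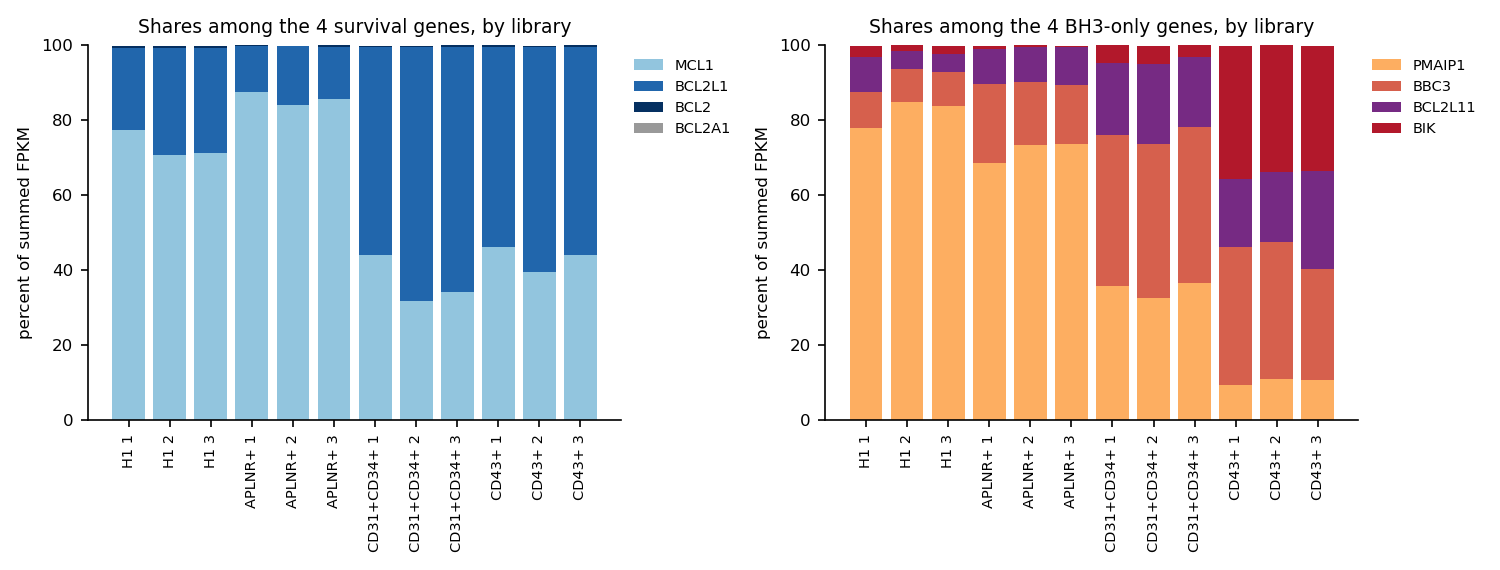
Percent of summed FPKM held by each of the 4 survival genes (left) and each of the 4 BH3-only members (right) in every library, 1 stacked bar a library, ordered by stage and replicate. MCL1 holds at least 70.8% of the survival sum in H1 and APLNR+ libraries and at most 46.2% later, and PMAIP1 goes from at least 77.9% of the sum of the 4 BH3-only members in H1 to at most 10.9% in CD43+ cells.

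Counted over the 8 members tested, a call needed an adjusted p under 0.05 and a 2-fold change. From H1 to APLNR+ cells no member was called, while 15.9% of all tested genes were (8.30% higher and 7.62% lower). On adjusted p alone 3 members passed beside 57.9% of genes, BCL2L1, PMAIP1 and BIK, all of them lower, and 4 had no overlap between the stages beside 66.0%. At the step to CD31+CD34+ cells BCL2L1 was called higher, beside 12.5% of genes, and PMAIP1 lower, beside 17.1% (29.6% in either direction). Here 7 of 8 passed on adjusted p alone beside 73.8%, and 8 of 8 did not overlap beside 75.7%. At the step to CD43+ cells BIK was called higher, beside 5.58% of genes, and no member lower, beside 8.79% (14.4% in either direction), with 7 of 8 passing on adjusted p beside 53.6% and 7 not overlapping beside 58.0%.

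Across the whole course, CD43+ against H1, 4 of 8 were called beside 37.1% of genes: BIK, BBC3 and BCL2L1 higher and PMAIP1 lower. There 7 of 8 passed on adjusted p beside 74.6%, and 7 did not overlap beside 76.3%. In CD31+CD34+ against H1, BCL2L1 (log2 change 1.72) and PMAIP1 (-2.20) were called, beside 40.1%, 6 of 8 passed on adjusted p beside 77.3%, and 6 did not overlap beside 79.0%. In CD43+ against APLNR+ cells, BIK (3.14), BCL2L1 (2.07) and PMAIP1 (-2.32) were called, beside 33.6%, 7 of 8 passed on adjusted p beside 74.1%, and 7 did not overlap beside 75.4%. With 8 genes, these shares give no result that is particular to the family. The median log2 change over the 8 was -0.02, 0.55 and 0.01 at the 3 steps in order, beside medians of -0.12, -0.01 and 0.00 over all tested genes.

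The members' profiles over the 12 libraries, described by the correlation of log2 values, had BCL2L1 and MCL1 opposed (r = -0.88) and PMAIP1 with MCL1 (0.92) but against BBC3 (-0.93) and BAX (-0.90). All 12 points share the 4 stages, so these values restate the order of the stages. Most like BCL2L1 were SF3B5 (0.995), a splicing factor subunit gene, ARF3 (0.993) and SHC1 (0.986). Most like PMAIP1 were ARHGAP8 (0.997), SEMA6B (0.995) and ZFP42 (0.995), the last a marker of pluripotent cells that went from a mean of 122 FPKM in H1 to 5.19 in CD43+ cells. MCL1 was closest to LMAN1 (0.997), TMEM243 (0.994) and FZD7 (0.987), and BAK1 to CSNK1G2 (0.992), RAB40C (0.990) and QSOX1 (0.990). BAX was closest to LDLRAD3 (0.972), SLC1A4 (0.970) and FNTB (0.970), BBC3 to HIST1H3H, C19orf70 and ENDOG (0.988 each), and BCL2L11 to ACAA1 (0.944), JAGN1 (0.940) and NECAP1 (0.939).

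The rest of the family was read from a list of 13 genes, of which 9 were tested. None was called from H1 to APLNR+ cells, beside 15.9% of all tested genes. BAD and BID were called higher and BNIP3 lower at the step to CD31+CD34+ cells (3 of 9, beside 29.6%), and BNIP3 higher and BOK, BAD and BMF lower at the step to CD43+ cells (4 of 9, beside 14.4%). BID, the BH3-only protein that links death receptors to mitochondria, was at 33.5 ± 4.37, 17.2 ± 2.41, 44.9 ± 7.79 and 75.5 ± 14.3 FPKM at the 4 stages. BAD, which is held inactive by growth factor signaling, was at 13.6 ± 2.61, 21.3 ± 4.57, 57.2 ± 8.54 and 22.2 ± 3.04, so its highest stage was that of BCL2L1. BMF fell by 1.11 and BOK, an effector relative, by 1.35 on the log2 scale in the last step (limma adjusted p = 3.97e-06 and 1.06e-06). The median change of the 9 was 0.07, 0.41 and 0.06 at the 3 steps.

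Outside the family, 23 of 25 genes in a list of caspase, apoptosome, inhibitor and related genes were tested. CFLAR and CASP10 were called higher and none lower at the H1 to APLNR+ step (2 of 23, beside 15.9% of all tested genes). At the step to CD31+CD34+ cells 4 were higher and 4 lower (8 of 23, beside 29.6%), and at the step to CD43+ cells CASP6 was higher and BIRC5 and FADD lower (3 of 23, beside 14.4%). CFLAR, which encodes c-FLIP, an inhibitor of caspase-8 at death receptors, was at 3.24, 3.03 and 2.99 FPKM in H1, 18.1, 20.2 and 20.1 in APLNR+ libraries, 117, 143 and 145 in CD31+CD34+ and 98.1, 105 and 106 in CD43+ libraries. Like BCL2L1 it was highest in CD31+CD34+ cells, with log2 changes of 2.32 and 2.73 at the first 2 steps (limma adjusted p = 1.13e-09 and 2.93e-10).

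CYCS, cytochrome c itself, fell from 72.9 ± 10.8 FPKM in APLNR+ to 11.8 ± 2.13 in CD31+CD34+ cells (log2 change -2.54, limma adjusted p = 5.19e-08), the step at which BCL2L1 rose. CASP6, an executioner caspase, fell by 1.95 to CD31+CD34+ cells and rose by 1.18 to CD43+ cells (limma adjusted p = 8.51e-06 and 8.95e-04). XIAP and BIRC2, which encode inhibitors of caspases and of death receptor signaling, each fell by 1.33 at the step to CD31+CD34+ cells, while ENDOG and HTRA2, mitochondrial proteins released in apoptosis, rose by 1.09 and 1.07. The list moved in both directions, with medians of -0.03, 0.14 and 0.35 at the 3 steps.

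**Figure D4:**
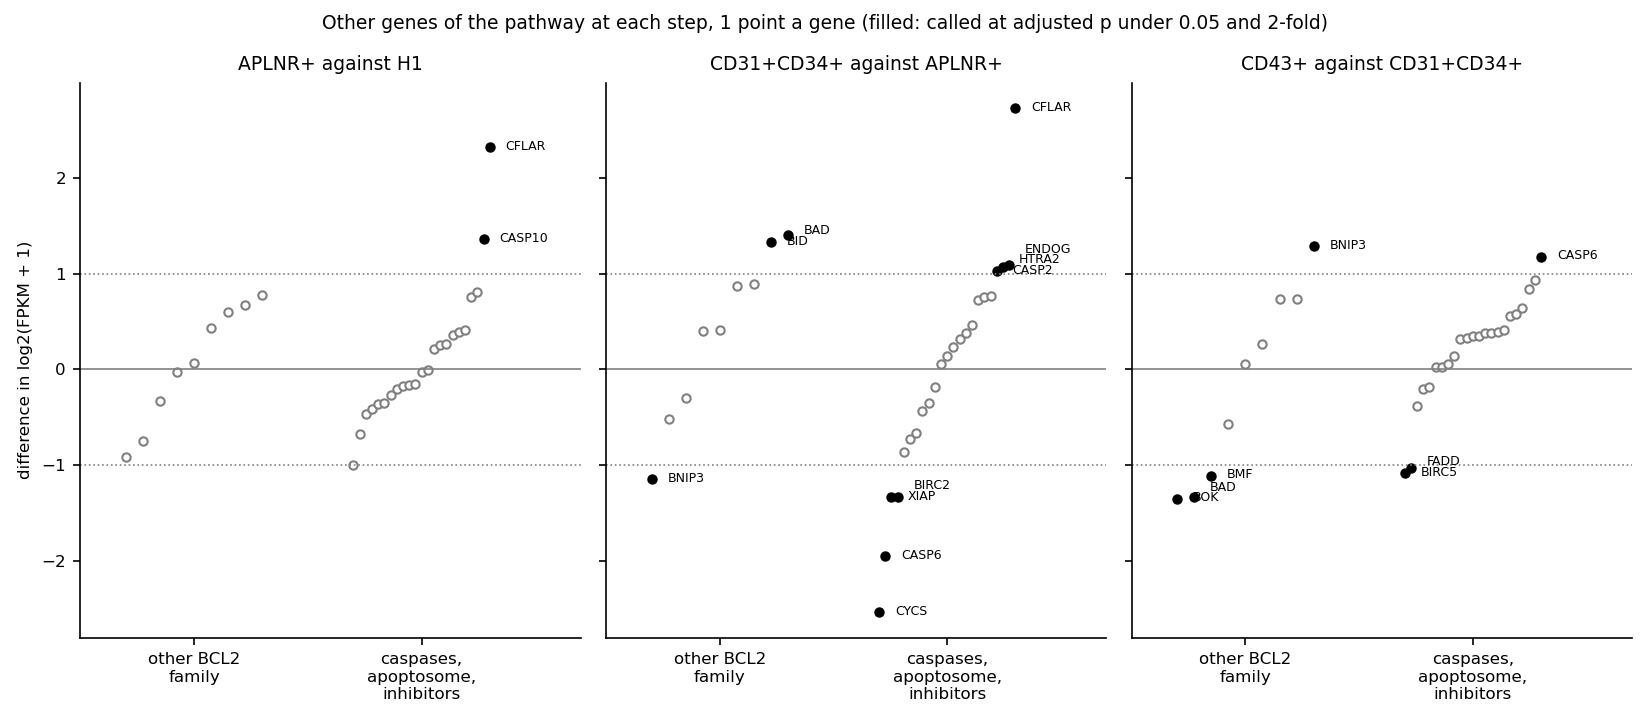
Difference in log2(FPKM + 1) (vertical axis) of each tested gene of the 2 other lists at the 3 steps, 1 point a gene, sorted within a list; filled and named points were called, and dotted lines mark 2-fold. CFLAR is the highest point of its list at the first 2 steps (2.32 and 2.73) and CYCS the lowest point of the step to CD31+CD34+ cells (-2.54).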

How the data were processed

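Per the labels, total RNA of 12 samples was taken up in Trizol and an Illumina TruSeq RNA kit was used for the libraries. The authors deposited FPKM values in 1 table, in which each column is a library matched to its sample by title. The submitters' processing notes name hg19, BWA, Bowtie and RSEM. Not given in the sources used here are which of these gave the FPKM values, the versions, the annotation, and whether libraries were scaled to each other. For RNA-seq the study's methods name BGI and Novogene and do not say which made these libraries. FPKM is relative to transcript length and to all fragments of the library, so a few abundant RNAs can lower all other values of a library. Read depth cannot be had from it, and intervals from counting were not computed.

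Of 58366 lines, 1 held text and was left out. Of 56593 symbols, 345 stand on several lines, of which the line highest on average was used. limma 3.58.1 in R 4.3.3 (lmFit, contrasts.fit, eBayes with trend) was fitted to log2(FPKM + 1) of all 12 libraries in 1 model for genes that reached 1 FPKM in at least 3 libraries, with 6 comparisons and Benjamini-Hochberg adjustment over 14840 genes in each, and was tested on simulated data. A fold change on this scale understates the change of low genes. Fold values in the text are ratios of mean FPKM, and "rose" or "fell" means an adjusted p under 0.05. The smallest p of an exact two-sided permutation of 3 and 3 libraries is 0.1, and every member comparison without overlap had that value. Alternatives were the pseudocount, the filter, upper-quartile and quantile scaling, the replicate block, the compared stages alone, eBayes without trend, other fold limits, replicates 2 and 3 alone, each library left out, and the sum over lines of a symbol.

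The members and lists were chosen with earlier results of these data known. Named genes were the members, up to 3 rises and 3 falls called per list and step, the 3 genes most like each member, and the sorting markers, and others named were chosen after their values were seen. Promoter windows came from RefSeq on GRCh38.p14, trimmed to the bases before the start. They do not share a build with the deposited values, which carry no coordinates. Transcript sequences and exon overlaps came from GENCODE 29. Some genes of the lists, and 1 list, are not reported here.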

Additional observations from a re-analysis of the deposited data

How the results depend on the processing

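With 3 libraries per stage the design resolves large changes and leaves small ones open, and no depth was known. Of 1140 member values recomputed over 24 alternatives, 1062 kept their direction and their side of the call, 67 gained a call, 1 lost it and 10 changed sign. Of the 37 member comparisons of 48 that passed on adjusted p, 33 did so under every alternative that tested them. The other 4 were BAX in CD31+CD34+ against H1 (adjusted p up to 0.105 by limma without CD31+CD34+ replicate 2 or 3 or H1 replicate 1 or 3), MCL1 at the last step and BCL2L11 at the 2 later steps. Of the 11 that did not pass, 7 did so under some alternative: BCL2L11 in CD31+CD34+ against H1 under 7, BAK1 in CD43+ against H1 and against APLNR+ under 5 each, BBC3 at the last step under 2, and BAX in APLNR+ against H1, BAX in CD31+CD34+ against APLNR+ and MCL1 in APLNR+ against H1 under 1 each. The cause was not tested for any of these.

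The changes of sign were all of small differences that did not pass as reported. BAK1 in APLNR+ against H1 was 0.04 under quantile normalization, 0.07 under upper-quartile scaling, 0.07 without APLNR+ replicate 3 and 0.05 without H1 replicate 1, in a leave-one-out range of -0.11 to 0.07. BCL2L11 in the same comparison was 0.05 under upper-quartile scaling, 0.24 in replicates 2 and 3 alone, 0.24 without H1 replicate 1 and 0.02 without APLNR+ replicate 2 (range -0.17 to 0.24). BAX in CD31+CD34+ against APLNR+ was -0.04 under quantile normalization, and BIK in CD31+CD34+ against H1 was 0.02 without H1 replicate 1 (range -0.26 to 0.02).

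Counts of called members moved mainly with the minimum change. With no minimum, 0 rose and 3 fell from H1 to APLNR+, 5 rose and 2 fell to CD31+CD34+, 3 rose and 4 fell to CD43+, and 5 rose and 2 fell in CD43+ against H1, 4 and 2 in CD31+CD34+ against H1 and 5 and 2 in CD43+ against APLNR+. At 1.5-fold the falls numbered 3, 2 and 2 at the 3 steps, 2 in CD43+ against H1 and 2 against APLNR+, and the rises 4 at the step to CD31+CD34+, 5 in CD43+ against H1, 3 in CD31+CD34+ against H1 and 4 in CD43+ against APLNR+. A pseudocount of 0.1 gave 2 falls from H1 to APLNR+, 1 at the last step, and rises of 2 to CD31+CD34+, 2 in CD31+CD34+ against H1 and 4 in CD43+ against APLNR+. Quantile normalization moved the median change of all genes in CD43+ against H1 from -0.10 to 0.02 and gave 4 rises and 2 falls in CD43+ against APLNR+. A mean of at least 5 FPKM removed BIK and BCL2L11 and left 0 rises at the last step and 1 in CD43+ against APLNR+. Replicates 2 and 3 alone gave 1 fall from H1 to APLNR+. With each library left out in turn, falls ranged from 0 to 1 in APLNR+ against H1 and from 0 to 1 at the last step, and rises in CD43+ against APLNR+ from 2 to 3.

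The replicate numbers were not taken as pairing the libraries, since not every same-number correlation of deviations was over 0.1. They ran from 0.196 to 0.429 for replicate 1, 0.025 to 0.247 for replicate 2 and -0.021 to 0.269 for replicate 3. Different numbers ranged from -0.404 to 0.289, and a library correlated best with its own number in 23 of 36 cases. Across stages, replicate 1 correlated negatively with every replicate 2 and 3 (-0.404 to -0.061), and replicates 2 and 3 correlated positively with each other. This grouping, also seen on the fourth principal component, is not part of the main fit. With the replicate block, the counts of called members did not move, with 3 members called higher and 1 lower in CD43+ against H1. On adjusted p by limma the block brought in BAK1 in CD43+ against H1 (0.0117) and against APLNR+ (0.00763), BAX in CD31+CD34+ against APLNR+ (0.0156), BBC3 at the last step (0.0393) and BCL2L11 in CD31+CD34+ against H1 (0.0478).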
